A study of Mus musculus with 10 samples.

Results

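The genes described here are those of a pair of clusters of zinc finger genes of the Krüppel-associated box (KRAB) type, 1 on chromosome 2 and 1 on chromosome 4 of the mouse, in undifferentiated embryonic stem cell (ESC) lines. Members were defined by position, as every row of the expression table whose gene lies in a window of chromosome 2, from Zfp831 (chr2:174643534-174710832 in GRCm38) to Fam217b (chr2:178414524-178424428), or in a window of chromosome 4, from Vps13d (chr4:144972622-145195005) to 2510039O18Rik (chr4:147940895-147947314). These windows were proposed with the values of the same lines in view, so levels and spread of the members are given as a description. Of the 20206 rows of the table, 134 met the rule. Of these, 4 rows had values identical to those of another member and were counted as 2, which left 132 members, 61 on chromosome 2 and 71 on chromosome 4. A zinc finger family was then marked within them by sequence, as genes whose coding sequence (or, in a pseudogene, any forward reading frame) held a KRAB A box or at least 3 zinc fingers. The family had 48 members on chromosome 2, of which 39 are annotated as protein-coding, and 24 members on chromosome 4, of which 21 are. The other 13 and 47 members are called neighbours. Of these 72, 59 held both a KRAB A box and at least 3 zinc fingers, 7 held an A box with fewer fingers, and 6 held fingers without an A box. The label of KRAB zinc finger genes therefore held in full for 59 of the 132 members, and most of the neighbours on chromosome 4 are processed pseudogenes.

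ESC lines were derived from blastocysts of C57BL/6 mothers, 7 to 9 weeks old and mated with C57BL/6 males, that were fed either LPD with 9% casein or NPD with 18% casein until embryonic day 3.5. All lines are labelled wild-type and male, and were grown out on feeder layers of mouse embryonic fibroblasts. According to the methods, each came from a different mother, and RNA was taken from fibroblast-free culture. There were 5 lines per diet, named here LPD lines 1, 4, 6, 20 and 40 and NPD lines 8, 15, 21, 36 and 51, and each line gave 1 sample. The authors deposited a normalised estimated read count for each gene and line, called the normalised value here.

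KRAB zinc finger proteins form a large family of repressors in mammals. An array of zinc fingers reads the DNA, often within an endogenous retrovirus or another transposable element, and the KRAB A box binds TRIM28, which recruits SETDB1 and other silencing factors. Many of these genes arose by recent local duplication and lie in clusters of close copies, and both clusters described here are of this kind. ESCs depend on this system to keep retroviral elements silent.

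The lines differed in depth and in the sex chromosomes. In read equivalents (the summed value of a line divided by the value that 1 read was worth), depth was between 20442953 and 23183285 in the NPD lines. In LPD it was 5842493 in line 4, 11252939 in line 40, 12359413 in line 6, 21934231 in line 1 and 24059730 in line 20. The Y-linked gene Ddx3y was at 7.70 in NPD line 15 and 174 in LPD line 4, against 1110 to 1493 in the other 8 lines. In NPD line 15, 334 X-linked genes had a median deviation of 0.49 (log2) from their own median over the 10 lines. In the other 9 lines this was between -0.055 and 0.028. ESC markers were abundant in every line (all 10 listed, summed value 100676 to 136959), and fibroblast markers (all 10 listed) summed to between 478 and 3573 in LPD and between 512 and 5756 in NPD. Summed values of 11 listed genes of the 2-cell-like state were 665 to 2893 in LPD and 362 to 3022 in NPD, those of 7 primitive endoderm genes 645 to 4312 and 448 to 4941, and those of 7 trophectoderm genes 3301 to 10338 and 3071 to 6224. Among the tested genes, fibroblast markers (8) had a median log2 fold change of -0.99, primitive endoderm markers (7) of 0.34 and trophectoderm markers (6) of 0.28. No marker of these lists had an unadjusted p under 0.05 between the diets (limma), and none was at 0 in every line. Their part in the values of the clusters was not tested. In RNA from whole cultures, a change in the share of a cell type and a change in RNA per cell cannot be told apart.

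The clusters are set apart by the A box itself. A stretch of 99 coding bases around the A box was found in 38 listed genes on chromosome 2, in 16 different versions, and in 21 on chromosome 4, in 13 versions. Examples from GENCODE transcripts are given 5′ to 3′ in the sense of the gene, with the codons of the conserved acidic pair and tryptophan in capitals. Gm4631, Gm14391, Rex2, Zfp980 and Zfp979 are shown as the most abundant members of their cluster. Gm14440 and Gm14288 are shown as the members whose values varied most. Zfp534 is shown for another version found on chromosome 4, and Zfp933 as an exception described below. Positions are those of GRCm38, and each stretch lies within 1 coding exon.
Gm4631 (chr2:175327491-175327589, minus strand): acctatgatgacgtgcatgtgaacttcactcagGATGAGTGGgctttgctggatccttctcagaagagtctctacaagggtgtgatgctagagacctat
Gm14391 (chr2:175197826-175197924, minus strand): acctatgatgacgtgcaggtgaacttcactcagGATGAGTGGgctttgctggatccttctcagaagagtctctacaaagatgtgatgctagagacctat
Gm14440 (chr2:175283307-175283405, plus strand): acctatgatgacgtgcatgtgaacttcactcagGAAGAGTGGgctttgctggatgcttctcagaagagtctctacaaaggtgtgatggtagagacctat
Gm14288 (chr2:175792757-175792855, minus strand): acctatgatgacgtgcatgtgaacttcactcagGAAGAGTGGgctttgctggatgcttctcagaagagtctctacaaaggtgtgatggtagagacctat
Rex2 (chr4:147055608-147055706, plus strand): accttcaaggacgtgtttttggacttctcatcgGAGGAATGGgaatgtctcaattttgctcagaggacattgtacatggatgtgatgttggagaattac
Zfp980 (chr4:145699253-145699351, plus strand): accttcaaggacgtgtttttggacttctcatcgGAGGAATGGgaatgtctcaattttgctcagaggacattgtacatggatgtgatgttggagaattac
Zfp979 (chr4:147615299-147615397, minus strand): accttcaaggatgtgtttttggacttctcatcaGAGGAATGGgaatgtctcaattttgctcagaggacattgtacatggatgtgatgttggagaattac
Zfp534 (chr4:147678236-147678334, minus strand): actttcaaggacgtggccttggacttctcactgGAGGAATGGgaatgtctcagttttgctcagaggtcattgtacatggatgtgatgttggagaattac
Zfp933 (chr4:147828689-147828787, minus strand): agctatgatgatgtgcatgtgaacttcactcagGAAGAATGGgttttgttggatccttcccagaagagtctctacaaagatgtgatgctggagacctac
Any 2 of these stretches were at least 90.9% identical within chromosome 2 (median 96.0%, 703 pairs). Within chromosome 4 they were at least 86.9% identical (median 92.9%, 190 pairs, with Zfp933 left out). Between the chromosomes the median was 61.6%. Zfp933 was the exception to the split by chromosome: it lies at the distal edge of the chromosome 4 family, but its A box was 87.9% to 90.9% identical to those of chromosome 2 and at most 64.6% identical to those of chromosome 4. Gm14440, Gm14288, Zfp965, Zfp966, Zfp968, Zfp969, Zfp970, Zfp973, Gm14327 and Gm14435 shared 1 version, and Rex2, Zfp600, Zfp978 and Zfp980 another.

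The same closeness limited how well reads could be assigned. A stretch of 31 bases (a 31-mer) found in the transcripts of no other gene made up a median of 9.24% of the transcript sequence of family members on chromosome 2 and 20.5% on chromosome 4. On chromosome 2, 7 family members had no 31-mer of their own and 14 had under 5%, and on chromosome 4 no member had under 5%. Salmon, the quantifier used by the authors, divides reads that fit several transcripts between them by estimation, so values of such members are uncertain. A further 6 members of chromosome 4, among them Zfp600, Zfp987 and Zfp992, had a row with identical values under an identifier that was not found in the annotation used here.

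The chromosome 4 family was expressed at a higher level than the chromosome 2 family in every line. Of the members, 93 had a mean value of at least 10 over the 10 lines and were kept for comparisons: 41 of the 48 family members and 4 of the 13 neighbours on chromosome 2, and all 24 family members and 24 of the 47 neighbours on chromosome 4. Mean values of these family members ranged from 13.4 to 1806 on chromosome 2 (median 72.0) and from 158 to 2677 on chromosome 4 (median 682). Per kilobase of annotated exon, the median was 37.4 on chromosome 2 and 293 on chromosome 4. The length counts the exons of all annotated transcripts of a gene, which need not be those expressed, so this scale is approximate. The 180 KRAB zinc finger genes elsewhere in the genome that passed the same filter had a median of 40.4 per kilobase, and all genes tested had 81.3. Within a line, the chromosome 4 median was 6.87 times (LPD line 6) to 8.83 times (LPD line 20) the chromosome 2 median, so the order was the same in 10 of 10 lines. The median was between 31.5 and 43.2 per kilobase on chromosome 2 and between 257 and 310 on chromosome 4, and the ranges did not overlap.

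**Figure D1:**
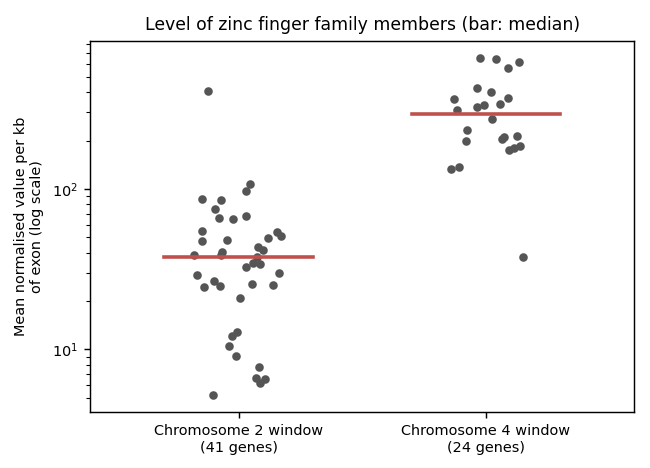
Mean normalised value per kilobase of exon (log scale) of the zinc finger family members with a mean of at least 10, 41 on chromosome 2 and 24 on chromosome 4; each point is a gene and the bar is the median. The medians were 37.4 and 293 per kilobase, and Gm4631 is the single high point of chromosome 2.

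On chromosome 2, Gm4631 (chr2:175321955-175338197) stood above all other members. It had values of 1739, 1491, 1782, 1412 and 2021 in LPD lines 1, 4, 6, 20 and 40 and of 1735, 2098, 2158, 1647 and 1979 in NPD lines 8, 15, 21, 36 and 51. The lowest value was in LPD line 20 and the highest in NPD line 21, and the diets overlapped. Gm4631, which encodes a protein with 13 zinc fingers, made up 29.8% of the summed value of the chromosome 2 family, and at 410 per kilobase lay above the chromosome 4 median. The next was Gm14391 (16 fingers), with 377, 430, 732, 416 and 359 in LPD lines 1, 4, 6, 20 and 40 and 565, 594, 449, 665 and 471 in NPD lines 8, 15, 21, 36 and 51. LPD line 6 was the highest of the 10 lines and the other 4 LPD lines were the lowest. Gm14296 (mean 383), Gm14443 (265), 2210418O10Rik (261), Zfp966 (201), Gm14295 (179) and Gm14444 (174) followed, and their highest line was 1.49 to 1.91 times their lowest. Zfp931, near the distal edge of the cluster, had a mean of 113 and ranged from 58.6 in LPD line 20 to 152 in NPD line 21.

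On chromosome 4, Rex2, Zfp980 and Zfp979 were the most abundant and made up 35.2% of the summed value of the family. Rex2 (chr4:147021850-147060794) encodes a KRAB protein with 15 fingers. Its values were 2487, 2766, 2168, 3680 and 2425 in LPD lines 1, 4, 6, 20 and 40 and 2878, 2298, 2333, 2734 and 2996 in NPD lines 8, 15, 21, 36 and 51. Zfp980 had 2582, 2576, 2011, 3414 and 2286 in the LPD lines in the same order, and 2921, 2361, 2432, 2901 and 2930 in the NPD lines. Zfp979, which has sequence of its own over 67.6% of its 31-mers, had 2027, 2033, 2382, 3206 and 2343, and 2293, 2064, 2155, 2361 and 2438. LPD line 20 was the highest line for all 3 genes, and LPD line 6 the lowest for Rex2 and Zfp980 but not for Zfp979. Zfp992 (mean 1483), Zfp988 (1198), Zfp534 (1070), Zfp981 (1055) and Zfp600 (1051) came next. Per kilobase the order was different, and Zfp980 (659), Zfp978 (648) and Rex2 (615) were the highest. In each of Rex2 and Zfp980 the highest line was 1.70 times the lowest. Their values rose and fell together over the lines (Pearson r = 0.94), and a difference in level between them was not tested.

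Rex2, Zfp600, Zfp979 and Zfp980 also shared their promoters, which are shown because these genes were all highest in the same line, as were Zfp988, Zfp534, Zfp985 and Gm21411. The sequences are the RefSeq promoters of GRCm38.p6, 250 bases before to 50 bases after the start of the gene, 5′ to 3′ in the sense of the gene. Capitals mark bases that differ from, or are absent in, the Rex2 promoter in a global alignment.
Rex2 (chr4:147021600-147021899, plus strand): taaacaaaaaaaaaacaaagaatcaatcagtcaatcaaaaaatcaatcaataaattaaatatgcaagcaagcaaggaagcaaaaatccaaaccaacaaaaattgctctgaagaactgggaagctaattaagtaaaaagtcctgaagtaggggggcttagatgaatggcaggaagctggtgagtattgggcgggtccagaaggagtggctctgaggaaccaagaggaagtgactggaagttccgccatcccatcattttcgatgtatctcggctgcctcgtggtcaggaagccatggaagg
Zfp600 (chr4:146156577-146156876, plus strand): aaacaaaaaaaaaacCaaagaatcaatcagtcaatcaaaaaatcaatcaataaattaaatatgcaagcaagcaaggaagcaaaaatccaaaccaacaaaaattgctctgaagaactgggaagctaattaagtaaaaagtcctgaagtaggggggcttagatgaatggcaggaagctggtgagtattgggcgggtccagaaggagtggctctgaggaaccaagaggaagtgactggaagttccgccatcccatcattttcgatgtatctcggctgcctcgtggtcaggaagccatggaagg
Zfp979 (chr4:147642459-147642758, minus strand): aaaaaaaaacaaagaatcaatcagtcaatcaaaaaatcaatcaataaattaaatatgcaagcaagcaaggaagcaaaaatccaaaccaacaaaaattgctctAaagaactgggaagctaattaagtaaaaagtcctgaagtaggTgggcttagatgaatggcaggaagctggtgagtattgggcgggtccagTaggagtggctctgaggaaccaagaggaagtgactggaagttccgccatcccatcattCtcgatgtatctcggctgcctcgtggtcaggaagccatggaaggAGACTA
Zfp980 (chr4:145670447-145670746, plus strand): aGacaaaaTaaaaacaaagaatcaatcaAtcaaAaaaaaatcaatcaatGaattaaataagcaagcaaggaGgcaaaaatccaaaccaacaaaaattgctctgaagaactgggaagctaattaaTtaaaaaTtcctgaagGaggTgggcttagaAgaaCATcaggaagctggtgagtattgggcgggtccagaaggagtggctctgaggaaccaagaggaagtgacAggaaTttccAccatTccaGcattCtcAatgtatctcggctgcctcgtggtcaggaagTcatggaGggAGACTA
The Zfp600 promoter differed from that of Rex2 at 2 positions, that of Zfp979 at 16 and that of Zfp980 at 35. These counts include the ends of stretches whose annotated starts are shifted. The last 6 bases of Zfp979 and of Zfp980, in capitals, lie past the end of the Rex2 stretch, and Zfp979 lacks 6 bases at its start. Among the 14 family members of chromosome 4 with a promoter in the RefSeq table, any 2 promoters differed at 2 to 184 positions with a median of 99.0. In LPD line 20, Zfp600 was at 1429, against 869 to 1131 in the other 9 lines. Rex2, Zfp600 and Zfp980 share much of their sequence (76.5% of the 31-mers of Zfp600 occur in Rex2, and 69.9% of those of Zfp980 in Zfp600), and its part in their common pattern was not tested.

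The promoters of both clusters had a feature in common. The 5-letter motif CCAAT, searched on both strands, was found in 96.9% of the 32 promoters of 27 family genes on chromosome 2 and in 76.5% of the 17 promoters of 14 family genes on chromosome 4, against 37.4% of all 32851 promoters of the table. These promoters are copies of each other and not independent. TATAAA, searched in the same way, was found in 3.13%, 5.88% and 13.6%. The dinucleotide CG occurred a median of 4.0 times in 300 bases on chromosome 2 and 5.0 times on chromosome 4, against 7.0 times over all promoters.

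The typical spread between lines was larger in the chromosome 2 family than in all genes tested, and smaller in the chromosome 4 family. The SD over the 10 lines of log2(value + 1) had a median of 0.33 for the chromosome 2 family and 0.23 for the chromosome 4 family, against 0.28 for KRAB zinc finger genes elsewhere and 0.27 for all genes tested. With the neighbours included, the medians were 0.35 and 0.29. The summed value of the chromosome 2 family was 5563, 5352, 6762, 5227 and 5890 in LPD lines 1, 4, 6, 20 and 40 and 5854, 7200, 6512, 6103 and 6227 in NPD lines 8, 15, 21, 36 and 51. That of the chromosome 4 family was 20607, 21310, 20448, 25628 and 20227 in the LPD lines and 23304, 21160, 20912, 21595 and 21894 in the NPD lines. The highest line was thus 1.38 times the lowest on chromosome 2 and 1.27 times on chromosome 4. For the sum of 188 KRAB zinc finger genes elsewhere it was 1.17 times. The lines that stood highest were different: NPD line 15 and then LPD line 6 on chromosome 2, and LPD line 20 and then NPD line 8 on chromosome 4. LPD line 20 was the lowest of the 10 for the chromosome 2 sum and the highest for the chromosome 4 sum. The median log2 deviation of chromosome 2 family members from their own mean was 0.22 in NPD line 15, 0.16 in LPD line 6 and -0.19 in LPD line 20. On chromosome 4 it was 0.22 in LPD line 20, 0.12 in NPD line 8 and -0.10 in LPD line 40. Over all genes tested it was between -0.0028 and 0.0078 in every line. NPD line 15 and LPD line 6 were also the lines with the most fibroblast marker RNA, with summed values of 5756 and 3573 for the list, against 2186 in NPD line 8 and 478 to 1174 in the other 7 lines. Col1a1 was at 2709 and 1704 in these lines and Col1a2 at 1442 and 1121. In the same list, Twist1 went another way, at 146 and 285 in these lines and highest in LPD line 20 (485). NPD line 15 and LPD line 6 also had the lowest summed values of the 2-cell-like list (362 and 665) and of the primitive endoderm list (448 and 645). LPD line 6 had the highest of the trophectoderm list (10338), most of it the keratins Krt8 (4577) and Krt18 (3053). Gata3 (265) was also highest there, but Cdx2, Eomes, Elf5 and Tfap2c were each highest in another line. The part of these markers in the chromosome 2 pattern was not tested. With both lines left out, the highest line was 1.25 times the lowest on chromosome 2 and 1.27 times on chromosome 4.

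**Figure D2:**
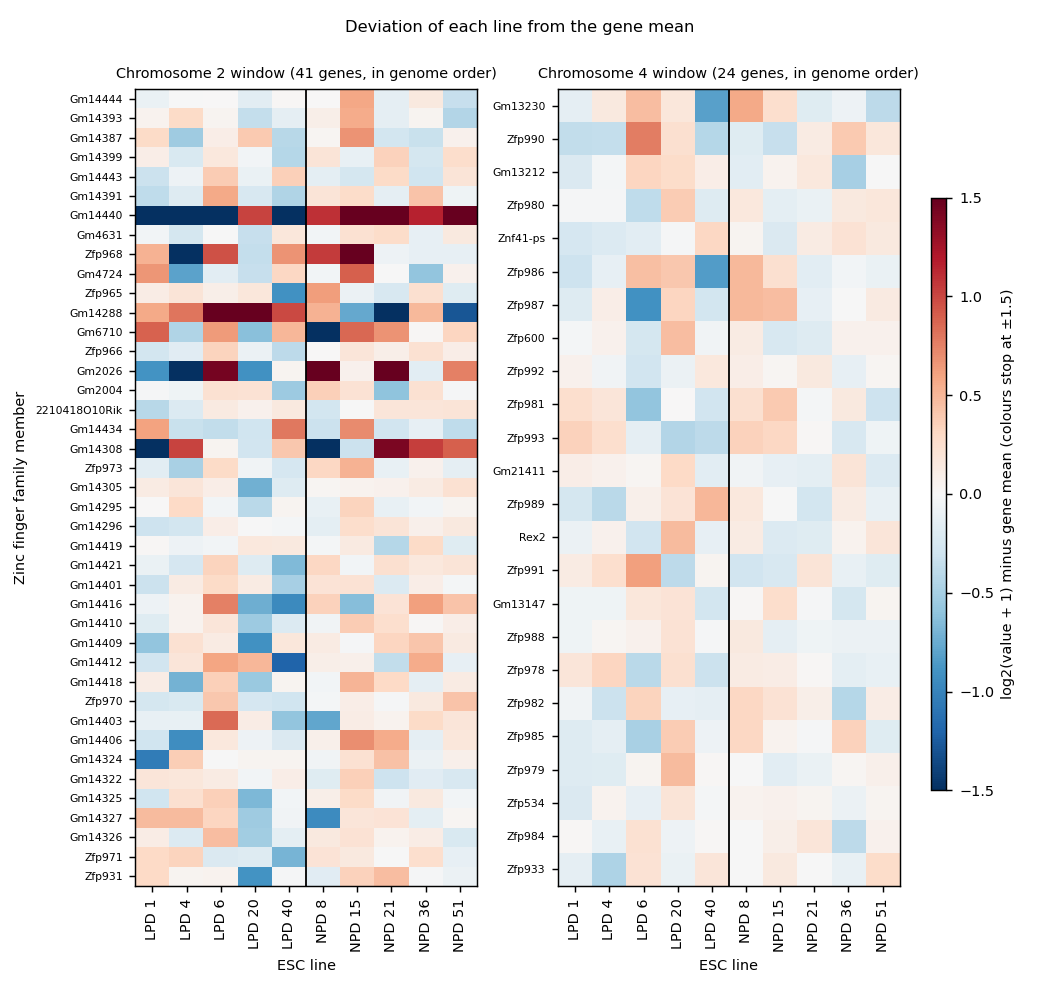
Log2(value + 1) of each line minus the mean of the gene, for the 41 and 24 tested family members in genome order (rows) and the 10 lines (columns, LPD left of the line and NPD right); colours stop at ±1.5. Saturated cells lie in a few genes of chromosome 2, while on chromosome 4 the SD of a gene was at most 0.41.

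The line in which a gene was highest followed the same division. On chromosome 2, NPD line 15 held the highest value of 13 of the 41 tested family members (31.7%) and LPD line 6 of 10 (24.4%), against 12.1% and 13.3% of all genes tested. On chromosome 4, LPD line 20 held the highest value of 8 of 24 (33.3%) and LPD line 6 the lowest value of 8 (33.3%), against 14.4% and 13.2% of all genes tested. LPD line 6 was therefore high on chromosome 2 and mixed on chromosome 4. There it was the lowest line for Zfp980, Zfp987, Zfp600, Zfp992, Zfp981, Rex2, Zfp978 and Zfp985, and the highest for 5 others, among them Zfp990, Zfp991 and Zfp984. Zfp990 was at 1181 in LPD line 6, against 516 to 907 in the other lines, and Zfp987 at 208, against 322 to 548. Rex2 and Zfp991, which follow each other in the family on chromosome 4, were at opposite ends in this line. NPD line 15 is also the line with little Ddx3y, and without it the median SD of all members tested was 0.36 on chromosome 2 and 0.29 on chromosome 4.

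**Figure D3:**
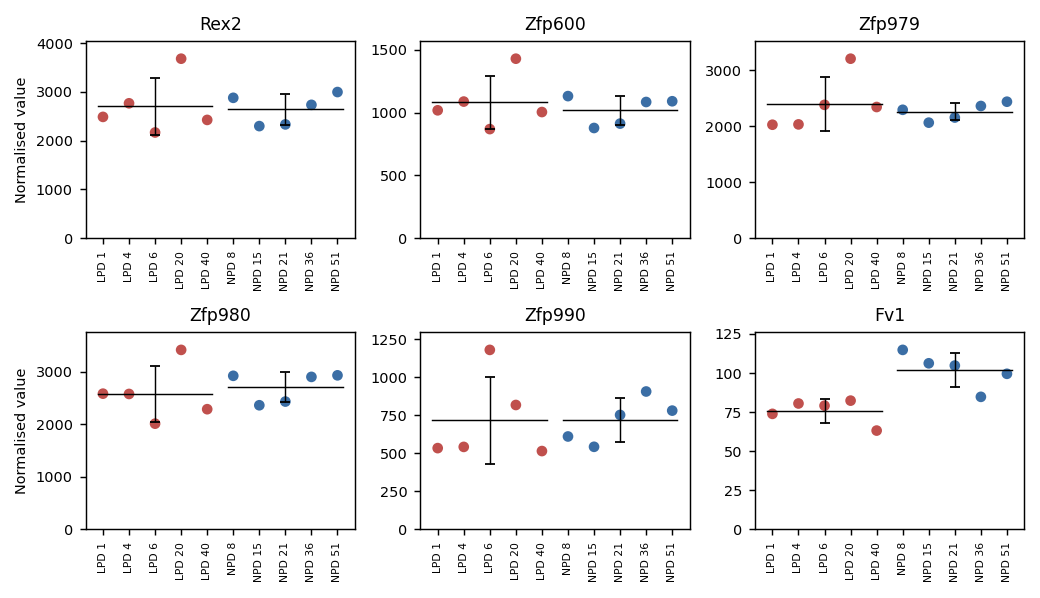
Normalised value of 6 members of the chromosome 4 window in each line (LPD red, NPD blue; horizontal bar, mean of the 5 lines; error bar, SD, n = 5). LPD line 20 is the highest point for Rex2, Zfp600, Zfp979 and Zfp980, LPD line 6 for Zfp990, and the diets do not overlap for Fv1.

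The large spread was found among members with little sequence of their own. Of the 12 tested family members with under 5% of 31-mers of their own, all on chromosome 2, 5 had an SD over 1, and the median SD was 0.51. Of the 53 others, 1 had an SD over 1 (Gm6710, with 6.09% of 31-mers of its own) and the median was 0.28. An SD over 1 was found in 14.6% of the chromosome 2 family, in 0.556% of KRAB zinc finger genes elsewhere and in 4.53% of all genes tested. The members with under 5% were also less abundant (median value 58.2 against 201), and a value of 72.0, the median of the chromosome 2 family, stood for only 25.0 read equivalents in LPD line 4 and 45.6 in LPD line 40, against 85.2 to 98.6 in the NPD lines. Counting error alone was then 20.004% in LPD line 4, 14.8% in LPD line 40, and 10.1% to 10.8% in the NPD lines. The chromosome 4 median stood for 236 read equivalents in LPD line 4. The parts of low depth and of shared sequence in this spread were not separated. Among members with at least 5% of their own 31-mers, the median SD was 0.30 on chromosome 2 and 0.23 on chromosome 4.

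**Figure D4:**
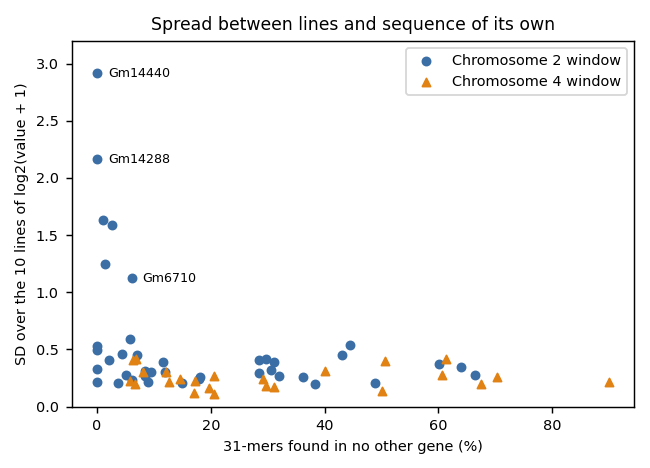
SD over the 10 lines of log2(value + 1) against the share of 31-mers found in no other gene, for the 41 family members of chromosome 2 (circles) and the 24 of chromosome 4 (triangles) with a mean of at least 10. All 6 points above an SD of 1 lie on chromosome 2 at no more than 6.09% of 31-mers of their own, with Gm14440 (2.91) and Gm14288 (2.16) the highest.

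Gm14440 and Gm14288 were the extreme case, and the only members in which the values of a family member separated the diets. Both are annotated with a short coding sequence that holds an A box and no zinc finger, and their A boxes, printed above, are identical. All 31-mers of Gm14440 and 97.5% of those of Gm14288 occur in the other gene. Gm14440 had values of 3.42 in LPD line 1 and 24.9 in LPD line 20 and was listed at 0 in LPD lines 4, 6 and 40, against 26.5, 185, 91.0, 27.7 and 78.0 in NPD lines 8, 15, 21, 36 and 51. Gm14288 had 60.4, 70.9, 119, 235 and 80.8 in LPD lines 1, 4, 6, 20 and 40, against 58.5, 23.3, 57.0 and 16.02 in NPD lines 8, 15, 36 and 51, and was listed at 0 in NPD line 21. Every LPD line lay below every NPD line for the first gene and above for the second. The log2 fold change of LPD against NPD was -4.63 for Gm14440 (standard error 0.90, limma, adjusted p = 0.290) and 2.56 for Gm14288 (standard error 0.92, adjusted p = 0.852), with an exact permutation p of 0.00794, the smallest that 5 against 5 lines allow, in each. On the log2(value + 1) scale these folds depend on the pseudocount. With 10 in place of 1 they were -2.46 and 1.74. Without NPD line 21, where it was listed at 0, Gm14288 had 1.54. LPD lines 4, 6 and 40, where Gm14440 was listed at 0, were also the lines of lowest depth. With log2 depth as a covariate the log2 fold changes were -3.19 for Gm14440 and 2.77 for Gm14288 (limma, adjusted p = 0.999 in each).

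The sum of the pair did not show this difference. It was 63.8, 70.9, 119, 260 and 80.8 in LPD lines 1, 4, 6, 20 and 40 and 85.0, 208, 91.0, 84.7 and 94.0 in NPD lines 8, 15, 21, 36 and 51. The diets overlapped over most of their range, and the log2 fold change of the sum was -0.036 (standard error 0.38, limma, unadjusted p = 0.925). What differed was the share given to Gm14440, which was at most 9.58% in the LPD lines and at least 31.2% in the NPD lines. The value of each gene alone is uncertain for this reason. The RefSeq promoter of Gm14440 (GRCm38.p6) is shown because that of Gm14288, on the other strand, holds the same bases.
Gm14440 (chr2:175274875-175275174, plus strand): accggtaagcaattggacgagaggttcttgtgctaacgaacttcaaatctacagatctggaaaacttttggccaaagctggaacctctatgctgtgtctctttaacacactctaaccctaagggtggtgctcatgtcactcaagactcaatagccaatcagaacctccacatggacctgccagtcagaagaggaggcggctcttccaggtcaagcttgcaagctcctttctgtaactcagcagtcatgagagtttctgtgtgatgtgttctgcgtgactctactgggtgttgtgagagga
The 2 differences between the promoters are 1 base at each end, since the annotated starts are shifted by 1 base.

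**Figure D5:**
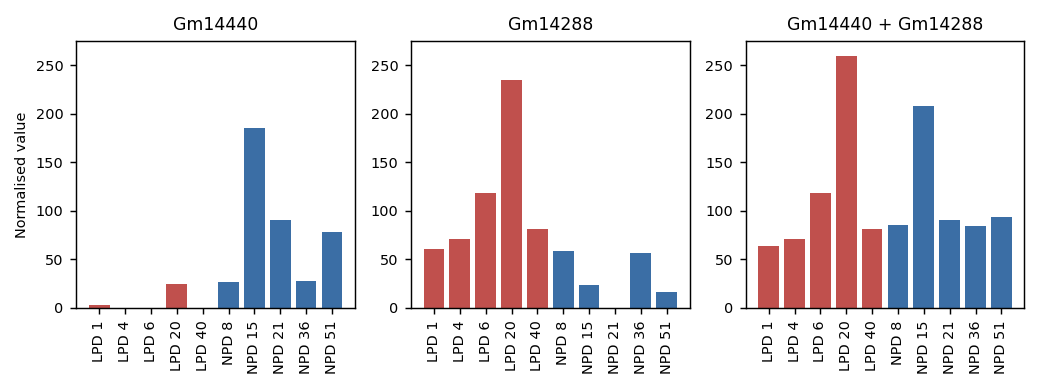
Normalised value in each line (LPD red, NPD blue) of Gm14440, of Gm14288 and of their sum, on 1 scale starting at 0. The first panel is higher in NPD, the second higher in LPD, and in the sum LPD line 20 (260) and NPD line 15 (208) stand above the other 8 lines, at 63.8 to 119.

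The other family members with a large spread also had little sequence of their own. Gm2026 (SD 1.63), Zfp968 (1.59) and Gm14308 (1.25) had between 0.99% and 2.67% of 31-mers of their own. Gm2026 ranged from a listed 0 in LPD line 4 to 44.5 in NPD line 21, Zfp968 from a listed 0 in LPD line 4 to 54.4 in NPD line 15, and Gm14308 from 2.68 in NPD line 8 to 45.9 in NPD line 21. Summed with their near copies, Gm2026 with Gm14434 had an SD of 0.42 and Gm14308 with Gm4724 one of 0.36. Zfp968 with Zfp969 kept an SD of 1.66, and both of these were listed at 0 in LPD line 4. Gm6710 ranged from 4.02 in NPD line 8 to 64.4 in LPD line 1. On chromosome 4, the 6 members with the largest spread were all neighbours, the pseudogenes Gm13244 (SD 1.31), Gm13223 (0.94), Gm13146 (0.72), Gm13135 (0.67), Gm13231 (0.61) and Gm13238 (0.60), with mean values of 11.1 to 86.6.

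The diet comparison asked whether the clusters were expressed differently in LPD lines. Log2 fold changes of the tested family members had a median of -0.18 on chromosome 2, where 33 of 41 were lower in LPD, and of -0.053 on chromosome 4, where 14 of 24 were lower. The median was 0.0020 over all genes tested, of which 7107 of 14354 were lower. It was -0.079 for KRAB zinc finger genes elsewhere, of which 115 of 180 were lower. Family members are close copies that share reads, so these counts of members are not counts of independent genes. With the neighbours, the medians were -0.18 and -0.051, and the latter was 0.042 without LPD line 40. The sums overlapped between the diets. On chromosome 2 the LPD lines averaged 5759 ± 615 (SD, n = 5) and the NPD lines 6379 ± 516. On chromosome 4 they averaged 21644 ± 2264 and 21773 ± 936. Of the 93 members tested, 1 was higher and 3 were lower in LPD at an unadjusted p under 0.05 (limma), which is 1 and 3 of 93 against 2.84% and 2.18% of all 14354 genes tested. Without LPD line 4 the counts were 1 and 2, without NPD line 15 they were 2 and 2, and without both LPD line 6 and NPD line 15 they were 1 and 6. No member had an adjusted p under 0.1 (limma), as 0.0% of all genes did. The exact Mann-Whitney test called 1 and 2 at an unadjusted p under 0.05. It called none at an adjusted p under 0.1 and could not have done so. Only genes whose diets do not overlap reach its smallest p of 0.00794, and these were too few among all genes. With limma and without LPD line 20, Gm14440 alone passed (adjusted p = 0.0714). Without LPD line 6 the count of members lower in LPD was 7, and without NPD line 21 it was 1. With near-identical copies summed, 0 members were higher and 1 was lower. The diets did not overlap in 1 member higher in LPD and 2 lower, where 0.523% and 0.495% of all genes tested did not.

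Fv1 was the 1 member still lower in LPD once near-identical copies were summed. It lies beside the chromosome 4 family (chr4:147868979-147870358), is not a zinc finger gene, and is derived from the gag gene of an endogenous retrovirus. Its product restricts infection by murine leukaemia viruses. Its values were 73.9, 80.5, 79.1, 82.4 and 63.2 in LPD lines 1, 4, 6, 20 and 40 and 115, 106, 105, 84.8 and 99.5 in NPD lines 8, 15, 21, 36 and 51. All 5 LPD lines lay below all 5 NPD lines, with 82.4 in LPD line 20 next to 84.8 in NPD line 36. LPD lines averaged 75.8 ± 7.72 (SD, n = 5) and NPD lines 102 ± 11.1, a log2 fold change of -0.42 with a standard error of 0.17 and a two-sided exact permutation p of 0.00794. With limma its adjusted p was 0.952. With any 1 line left out the log2 fold change was between -0.49 and -0.36. Nearly all of its sequence (99.9% of 31-mers) is its own. The third member lower in LPD was Gm14406, with 43.5 to 93.8 in LPD and 76.4 to 137 in NPD, which is a log2 difference of -0.55 with a standard error of 0.24 (exact permutation p = 0.0476). It has 4.33% of 31-mers of its own, and summed with its near copy Gm14444 its values were 215 to 266 in LPD and 229 to 393 in NPD. With log2 depth as a covariate its log2 difference was -0.31 (limma, adjusted p = 0.999).

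The named family members of chromosome 4 did not differ between the diets beyond the spread between lines. For Rex2 the log2 difference was 0.015 with a standard error of 0.14 (exact permutation p = 0.929), and it was -0.019 and -0.017 under the other scalings tried. For Zfp534 it was -0.048 ± 0.091 (SE) and for Zfp600 0.073 ± 0.13 (SE), with exact permutation p of 0.579 and 0.651. For Zfp931 on chromosome 2 it was -0.21 ± 0.23 (SE; exact permutation p = 0.500), and -0.011 without LPD line 20. The 2 members next to Gm14288 among those higher in LPD, Plod1, a collagen lysyl hydroxylase, and Zfp991, had 0.26 ± 0.16 and 0.25 ± 0.17 (SE; exact permutation p = 0.159 and 0.190), and both overlapped between the diets. Plod1 had 0.12 without NPD line 15, and Zfp991 had 0.13 without LPD line 6, 0.38 without LPD line 20 and 0.10 with depth as a covariate. A p that misses the threshold does not show that these levels were the same.

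The neighbours with a mean of at least 10 ran from Zfp972 to Fam217b on chromosome 2 and from Vps13d to 2510039O18Rik on chromosome 4. Zfp972 is named a zinc finger gene but its annotated coding sequence met neither pattern. Of the 28 neighbours tested, Fv1 was the only one with an unadjusted p under 0.05, and log2 fold changes of the others ran from -0.95 (Phactr3, mean 10.3) to 0.53 (Gm13146, mean 11.1). Mfn2, a mitochondrial fusion protein, Miip and Plod1, which flank Fv1 or lie close to it, had 0.0077, -0.20 and 0.26.

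The factors through which KRAB proteins silence were measured in the same lines. All 24 genes of the list passed the filter, none had an unadjusted p under 0.05 with limma, and log2 fold changes ran from -0.26 to 0.19 with a median of -0.10. By the exact permutation test 1 of the 24 was under 0.05, and the share of all genes under 0.05 by this test was not computed. It was Mphosph8, a reader of methylated histones in the HUSH complex, with 2039 ± 44.2 (SD, n = 5) over LPD lines and 2199 ± 73.1 over NPD lines. Its unadjusted exact permutation p was 0.0159, while with limma its unadjusted p was 0.123 and its adjusted p 0.994. Trim28, the corepressor bound by KRAB, averaged 21767 ± 4017 (SD, n = 5) over LPD lines and 23715 ± 3730 over NPD lines, and Setdb1, a histone methyltransferase, 2362 ± 283 and 2717 ± 344. Zfp57 and Zfp809, KRAB zinc finger genes outside the windows that act on imprinted genes and on retroviruses, had log2 fold changes of 0.021 and -0.078.

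Outside the windows, the genes whose values over the 10 lines were most like the mean of the chromosome 2 members were Trim3 (Pearson r = 0.95), Olfr1033 (0.93), Tpm3-rs7 (0.91), Pcdhga4 (0.90) and Prrx2 (0.90). Those genes lie on chromosomes 7, 2, 14, 18 and 2, in that order. For the chromosome 4 members they were Chrnb2 (0.95), Mfsd1 (0.95), Ect2 (0.92) and Gnai3 (0.91), all on chromosome 3, and Tatdn1 (0.90) on chromosome 15. The reason for the shared chromosome was not tested. None of the 10 holds a KRAB A box or a zinc finger array. They are the highest of all genes compared over the same 10 lines, share libraries and depth, and are given as a description.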

How the data were processed

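RNA of 10 ESC lines, 5 LPD and 5 NPD, was analysed, each line as 1 replicate. Per the paper and the submitters' processing notes, the authors trimmed adaptors with cutadapt, kept reads of high quality, quantified GRCm38 transcripts of Ensembl with Salmon and tested transcripts with sleuth 0.30.0. The table the authors deposited holds a normalised signal per gene, an estimated read count scaled with DESeq2 as its name says. How transcripts were summed is not given in the sources used here. Low values were whole multiples of 1 read for 93.3% to 99.7% of values in single-transcript genes (tolerance 0.15) but for only 67.7% to 73.8% over all genes, so no count model was used.

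Identifiers were matched to GENCODE M21 (19891 of 20206 rows; 315 without a position). Zinc fingers were counted as the pattern of 2 cysteines and 2 histidines, and KRAB by a pattern of the A box, in sequences translated from GENCODE transcripts, since no RefSeq protein table was used here. A gene with an A box and fewer than 3 fingers, such as Gm14440 and Gm14288, was kept in the family, a criterion added after seeing the sequences. Values were tested as log2(value + 1) for the 14354 rows with a mean of at least 10 with limma 3.58.1 in R 4.3.3, using a mean-variance trend and diet as the only term, p-values were adjusted over these rows by Benjamini-Hochberg, and named genes were tested by exact permutation over 252 assignments. On simulated data with 200 of 14354 genes changed, 69% of changes of 1 and 86% of changes of 2 on the log2 scale were recovered and 20 unchanged genes were called.

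Named were, in each window, the 8 family members with the highest mean and the 6 members with the largest SD, the 3 members in each direction with the smallest p, Rex2, Zfp534, Zfp600, Zfp931 and Fv1, the neighbours by their first and last, the silencing factors, and the 5 genes most like each window. Log2 fold changes are given for those chosen by p or by name. Members and lists were chosen with earlier results of these data known. Other genes were named after their values were seen. Columns without a mapped line numbered 0. Python 3.11.15 was used for the other steps. Alternatives were other pseudocounts, filters, scalings and limma settings, an exact Mann-Whitney test, depth as a covariate, identical rows counted separately and each line left out. Summing near-identical copies (at least 90% of 31-mers shared), leaving out members with under 5% of their own 31-mers, and leaving out LPD line 6 together with NPD line 15 were added after seeing the data.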

Additional observations from a re-analysis of the deposited data

Results flagged for a closer look

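In 70 groups of 5 lines checked for a line far from the others, 8 were found. The genes checked were the named ones, some of them named for the largest SD over these same lines. The family sums also contain their own members. No rate by chance can therefore be set beside this count. High for their group were Gm14391 in LPD line 6 (732), Gm14440 in LPD line 20 (24.9), Gm13223 in LPD line 4 (60.5), Zfp988 in NPD line 8 (1318) and the summed chromosome 4 family in LPD line 20 (25628). Low for their group were Zfp534 in NPD line 36 (1008) and the pseudogenes Gm13231 (11.1) and Gm13238 (4.73) in LPD line 40.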

How the results depend on the processing

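No paired analysis was possible because the LPD and NPD lines share no replicate number. Members lower in LPD at an unadjusted p under 0.05 numbered 3 as reported, 5 with no filter on low values, 0 with a mean of at least 100, 1 with near-identical copies summed, 6 without both LPD line 6 and NPD line 15, and 1 to 7 with each line left out. Members higher in LPD numbered 1 as reported, 0 with a mean of at least 100, 0 with near-identical copies summed, and 1 to 2 with each line left out. Members under an adjusted p of 0.1 numbered 0, and 0 to 1 with each line left out (limma), the 1 being Gm14440 without LPD line 20 at a log2 fold change of -5.46. The median log2 fold change of the chromosome 4 window lay between -0.077 and 0.042 with each line left out and changed sign without LPD line 40. The log2 fold change of Rex2 changed sign after scaling lines to equal totals (-0.019) and under quantile normalisation (-0.017). With each line left out it lay between -0.10 and 0.089, and that of Zfp600 between -0.032 and 0.15. The log2 fold change of Gm14288 turned to -0.036 when summed with Gm14440, by construction, and that of Gm14440 moved from -4.63 to the same value. The other 328 recomputed values kept their direction and their side of the threshold or stayed within 1.5 times or 1 SD of the reported value. For named genes only the sign and the adjusted p threshold of 0.1 were compared. None was under it as reported, so their fold changes could still move far, and the change in Gm14440 is counted among the 328. Depth was lowest in LPD lines 4, 6 and 40, and the chromosome 2 family has the fewest reads behind its values. The cause of the changes was not tested.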
